A study of Mus musculus with 12 samples.

Results

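The 10 genes described here are Ocln, Marveld2, Lsr, Spint1, Spint2, Krt8, Krt18, Krt19, Esrp2 and Bcam, mouse genes best known from epithelia. They were taken by name from 35976 gene names, and were chosen by the measured FPKM difference between doxycycline and no doxycycline in HE1 and HE2, sorted populations of hemogenic endothelium. Their differences in HE1 and HE2 are therefore given as a description with no test. Their difference in HP, which the choice did not name, was tested. All 10 names were found, and all 10 passed a filter of at least 1 FPKM in at least 2 of 12 libraries. Marveld2 and Spint1 passed it through doxycycline-treated libraries alone, since 0 of the 6 untreated libraries reached 1 FPKM for either gene.

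The cells came from A2lox.cre mouse embryonic stem cells, which accept a doxycycline-inducible gene at a fixed genomic site, here the leukaemia fusion RUNX1-EVI1. RUNX1 is a transcription factor needed to form blood, and EVI1 is a zinc finger protein encoded by Mecom. Cells positive for the receptor FLK1 were cultured towards blood, given 0.5 µg/ml doxycycline (PlusDox) or none (NoDox) for 18 hours, and sorted as hemogenic endothelium 1 (HE1), hemogenic endothelium 2 (HE2) or hematopoietic progenitors (HP). In the embryo, hemogenic endothelium lines vessels and gives rise to the earliest blood cells. The 6 groups were PlusDox HE1, NoDox HE1, PlusDox HE2, NoDox HE2, PlusDox HP and NoDox HP, with 2 libraries each, described as biological replicates. Every group, NoDox included, carried the construct and its own RUNX1 and EVI1 genes. No group had doxycycline without the construct, so the fusion and the drug cannot be told apart. The labels do not say whether the cells came from 1 colony or several, and the sources used here give no sort gates.

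Values are FPKM, which scale fragment numbers to transcript length and library size, so levels can be set against each other between genes. Each library had 11461 to 12174 genes at 1 FPKM or more, and relative depth ran from 0.579 to 1.594 times the median library. In 5 libraries the gene Lars2 was over 1000 FPKM, namely replicate 2 of PlusDox HE1, PlusDox HE2, PlusDox HP and NoDox HP and replicate 1 of NoDox HE1. The other 7 libraries were below that level. Mecom read 5.18 and 5.51 FPKM in PlusDox HP, against 0.194 and 0.205 FPKM in NoDox HP. In PlusDox HE2 it read 18.4 and 20.2 FPKM, against 6.08 and 13.9 FPKM in NoDox HE2. In HE1 the Mecom libraries overlapped, with 23.0 and 18.1 FPKM in PlusDox and 17.0 and 28.3 FPKM in NoDox. The files do not separate reads of the construct from those of the mouse genes. Endothelial markers led in HE1 and blood markers in HP, while HE2 held both. The 7 endothelial markers summed to 1307 to 1487 FPKM in PlusDox HE1, against 1247 to 1734 FPKM in NoDox HE1. The 7 blood markers summed to 54.8 to 92.0 FPKM in PlusDox HE1 and 112 to 185 FPKM in NoDox HE1, lower with doxycycline. In HE2 the blood markers summed to 934 to 1069 FPKM in PlusDox and 1016 to 1257 FPKM in NoDox, and in HP to 4826 to 6357 FPKM in PlusDox and 7894 to 8582 FPKM in NoDox.

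Epithelial cells form sheets joined at their upper edges by tight junctions, belts of membrane proteins that control what passes between cells. Occludin runs along the belt, while tricellulin and the lipolysis-stimulated lipoprotein receptor close the corners where neighbouring cells meet. Sheets of this kind also hold keratin filaments, built from obligate pairs of a type I and a type II keratin, and surface protease inhibitors of the Kunitz type. Endothelium is a sheet too and makes tight junctions, with claudin-5 as its best known claudin.

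Among the 10 genes, 9 were higher in both PlusDox libraries than in both NoDox libraries in HE1, in HE2 and in HP, and Krt8 was the exception in all 3 populations. Across all tested genes that held for 13.6% in HE1, 22.3% in HE2 and 20.5% in HP. Nothing is read from the HE1 and HE2 counts, since those contrasts chose the genes. The median difference of the 10 genes on the log2(FPKM + 1) scale was 1.60 in HE1, 1.85 in HE2 and 0.90 in HP. For all 13316 tested genes the medians were −0.07 in HE1, −0.05 in HE2 and −0.00 in HP. In HP, where a test was made, 0 of the 10 genes passed limma's test at an adjusted p below 0.05. At an unadjusted p below 0.05 there were 7 of the 10 in HP, and 1250 of all 13316 tested genes. The 9 and the 7 in HP include Marveld2 and Spint1, which passed the filter through PlusDox libraries alone. They also include Spint2, which had 1 NoDox library at 1 FPKM or more. Of all tested genes 0.601% were called higher in PlusDox HP. Summed over the 10 genes, the level was 189.6 and 135 FPKM in PlusDox HE1, against 59.2 and 59.2 FPKM in NoDox HE1. In PlusDox HE2 the sum was 155 and 146 FPKM, against 41.3 and 49.4 FPKM in NoDox HE2. The HP sums lay closer together, at 63.3 and 98.2 FPKM in PlusDox HP and 38.1 and 52.6 FPKM in NoDox HP. These were bulk samples, in which a larger share of cells with these transcripts and more RNA per cell cannot be told apart.

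**Figure D1:**
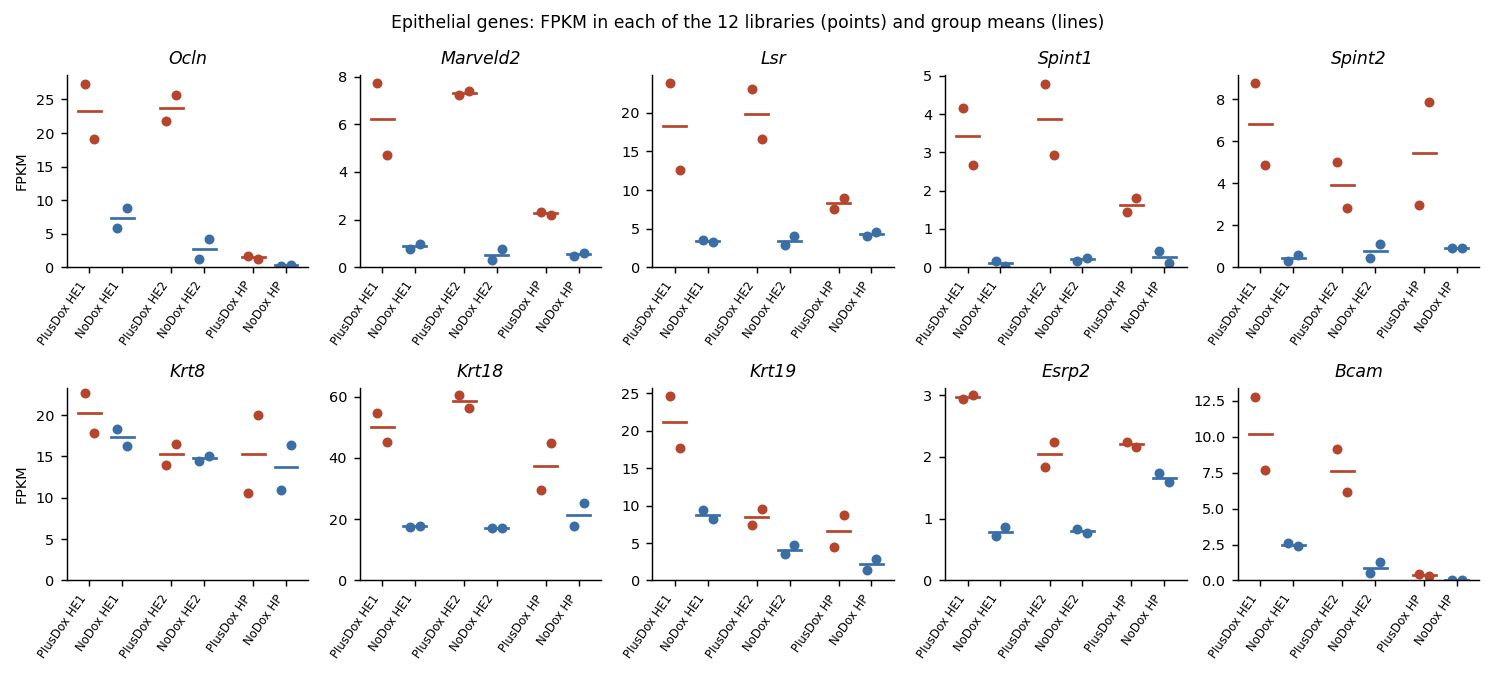
FPKM of each of the 10 genes in the 12 libraries, with the 6 groups on the horizontal axis, points for libraries, lines for group means, PlusDox in red and NoDox in blue. Krt8 is the gene whose PlusDox and NoDox points overlap in every population, and Ocln and Bcam are lowest in HP.

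The junction genes came from neighbouring and distant sites. Ocln lies at chr13:100496504-100552718 and Marveld2 at chr13:100595957-100616971 in mm10, 43239 bases apart and with no other tested gene between them. Lsr lies at chr7:30957770-30973469. Their promoters are shown because the 3 genes work at the same junction and all hold the letters CAGGTG, a site of the E-box kind that E proteins and the Zeb and Snail repressors are known to bind. The sequences run from 250 bases before to 50 bases after the RefSeq start (GRCm38.p6, minus strand), at chr13:100552669-100552968 for Ocln, chr13:100616922-100617221 for Marveld2 and chr7:30973420-30973719 for Lsr. Capitals mark CAGGTG or its reverse complement CACCTG, and for Ocln and Marveld2, which have 2 starts in RefSeq, the outer start is shown.
Ocln: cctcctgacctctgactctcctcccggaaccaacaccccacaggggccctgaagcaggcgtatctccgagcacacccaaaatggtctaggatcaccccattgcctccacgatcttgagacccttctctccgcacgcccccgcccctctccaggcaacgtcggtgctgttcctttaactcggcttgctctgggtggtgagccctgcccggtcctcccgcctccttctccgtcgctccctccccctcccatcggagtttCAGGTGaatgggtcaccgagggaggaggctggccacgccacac
Marveld2: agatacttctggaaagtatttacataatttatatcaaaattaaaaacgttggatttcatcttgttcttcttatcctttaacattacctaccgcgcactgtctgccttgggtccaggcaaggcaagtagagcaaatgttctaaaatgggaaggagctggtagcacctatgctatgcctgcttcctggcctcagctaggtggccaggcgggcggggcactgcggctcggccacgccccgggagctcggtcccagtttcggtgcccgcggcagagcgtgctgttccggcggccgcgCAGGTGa
Lsr: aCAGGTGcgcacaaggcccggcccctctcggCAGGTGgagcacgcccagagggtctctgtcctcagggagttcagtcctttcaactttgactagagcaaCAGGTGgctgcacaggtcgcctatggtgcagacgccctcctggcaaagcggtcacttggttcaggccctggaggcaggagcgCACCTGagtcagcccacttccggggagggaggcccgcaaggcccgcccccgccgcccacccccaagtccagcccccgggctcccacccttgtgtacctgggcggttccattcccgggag
Of the 10 promoters that RefSeq gives for 8 of the 10 genes, 8 promoters of 6 genes (Ocln, Marveld2, Lsr, Spint2, Krt8 and Krt18) held CAGGTG on either strand, as did 20.2% of all 32851 promoters of this length. The 2 promoters of Ocln overlap, as do the 2 of Marveld2, and a CAGGTG that they share was counted in both. The 8 are therefore not separate sequences. The RUNX letters TGTGGT or TGCGGT were in 0 of the 10 promoters and in 22.4% of all. A long EVI1 motif, GACAAGATA, was in 0 of the 10 and in 0.119% of all, and the GATA letters AGATAA were in that of Krt8 and in 11.2% of all. The Grainyhead letters AACCGGTT were in 0 of the 10 and in 0.146% of all, the ETS letters CCGGAAG in those of Spint1 and Lsr and in 8.86% of all, and the SP and KLF letters GGGCGGGG in those of Spint1, Spint2, Ocln and Marveld2 and in 17.6% of all. Each was searched on both strands. Promoters of the 10 genes had a GC content of 54% to 71%, against a median of 52.7% over all promoters, and motif counts were not matched for it. A match describes letters, and binding was not measured here.

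Ocln encodes occludin, a membrane protein of the tight junction belt. It had 27.4 and 19.2 FPKM in PlusDox HE1, against 5.79 and 8.79 FPKM in NoDox HE1. In HE2 the levels were 21.8 and 25.6 FPKM with doxycycline and 1.16 and 4.25 FPKM without it. HP held little of it, 1.71 and 1.29 FPKM in PlusDox HP and 0.231 and 0.275 FPKM in NoDox HP. No PlusDox library overlapped a NoDox library of its population, and the PlusDox HE1 and HE2 libraries overlapped each other. On the log2(FPKM + 1) scale the difference was 1.55 ± 0.35 in HE1 and 2.87 ± 0.35 in HE2 (SE from limma, n = 2 and 2). In HP it was 0.99 ± 0.35 and did not pass (adjusted p = 0.310). With a pseudocount of 0.1 the order of HE1 and HP turned, with 1.67 in HE1, 3.34 in HE2 and 2.17 in HP. Without doxycycline the level was lower at each stage from HE1 through HE2 to HP, with group means of 7.29, 2.71 and 0.253 FPKM.

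Tricellulin, the product of Marveld2, sits at tricellular corners. Its transcript stood at 7.72 and 4.73 FPKM in PlusDox HE1, against 0.777 and 0.972 FPKM in NoDox HE1. PlusDox HE2 libraries had 7.22 and 7.40 FPKM, against 0.309 and 0.746 FPKM in NoDox HE2. PlusDox HP libraries had 2.32 and 2.20 FPKM, against 0.488 and 0.608 FPKM in NoDox HP. Every PlusDox library was thus above every NoDox library of any population. Its log2 difference came to 1.92 ± 0.23 in HE1, 2.46 ± 0.23 in HE2 and 1.07 ± 0.23 in HP. The HP difference had the lowest adjusted p among the 10 genes, 0.0602, and did not pass. It passed when PlusDox HE1 replicate 1 (adjusted p = 0.0357) or replicate 2 (0.0354) was left out of the pooled spread, and after median scaling (0.0283) or quantile normalization (0.0479). With a pseudocount of 0.1 it was 1.87.

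Occludin and tricellulin transcripts did not move in proportion. The Ocln to Marveld2 ratio of FPKM was 3.54 and 4.05 in PlusDox HE1, against 7.45 and 9.05 in NoDox HE1. It was 3.01 and 3.46 in PlusDox HE2, against 3.76 and 5.70 in NoDox HE2. In both endothelial populations the ratio was therefore lower with doxycycline, and in HP it was higher, at 0.740 and 0.586 in PlusDox HP and 0.475 and 0.452 in NoDox HP. Ocln was the more abundant transcript of the pair in HE1 and HE2, and Marveld2 in HP. Marveld2 stayed below 1 FPKM in every NoDox library, as did Ocln in NoDox HP, so these ratios divide low values. They were not tested, and the HE1 and HE2 differences chose the genes.

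Lsr encodes the lipolysis-stimulated lipoprotein receptor, which recruits tricellulin to corners. Its level was 23.9 and 12.6 FPKM in PlusDox HE1 and 3.51 and 3.23 FPKM in NoDox HE1. PlusDox HE2 had 23.1 and 16.6 FPKM, against 2.84 and 4.05 FPKM in NoDox HE2. PlusDox HP had 7.49 and 9.03 FPKM, against 4.03 and 4.56 FPKM in NoDox HP. The untreated libraries of all 3 populations spanned a narrow range of 2.84 to 4.56 FPKM, and no treated library fell inside it. The log2 difference was 2.08 ± 0.28 in HE1, 2.22 ± 0.28 in HE2 and 0.80 ± 0.28 in HP, where it did not pass (adjusted p = 0.294).

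Spint1 and Spint2 encode Kunitz-type serine protease inhibitors of the cell surface, which hold in check matriptase, the product of St14, and hepsin, the product of Hpn. Spint1 lies at chr2:119237360-119249535 and Spint2 at chr7:29256330-29282059. Spint1 was close to 0 without doxycycline. It had 4.17 and 2.66 FPKM in PlusDox HE1, against 0.153 and 0.0412 FPKM in NoDox HE1. PlusDox HE2 had 4.8 and 2.94 FPKM, against 0.172 and 0.230 FPKM in NoDox HE2. PlusDox HP had 1.43 and 1.82 FPKM, against 0.417 and 0.0976 FPKM in NoDox HP. No PlusDox library came within the range of the NoDox libraries of any population. On the log2 scale the difference was 1.99 ± 0.25 in HE1, 1.99 ± 0.25 in HE2 and 1.07 ± 0.25 in HP (adjusted p = 0.0801, not passed). For a gene this low the fold depends on the pseudocount, and with 0.1 in place of 1 it was 4.19 in HE1, 3.69 in HE2 and 2.42 in HP.

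Spint2 was below 1.1 FPKM in every untreated library. Its level was 8.76 and 4.87 FPKM in PlusDox HE1 and 0.293 and 0.591 FPKM in NoDox HE1. In HE2 it was 5.01 and 2.82 FPKM with doxycycline and 0.428 and 1.09 FPKM without. HP libraries had 2.98 and 7.90 FPKM in PlusDox and 0.909 and 0.929 FPKM in NoDox. The PlusDox libraries of HE1, HE2 and HP overlapped one another, and all 6 were above all NoDox libraries. In log2 units the difference was 2.40 ± 0.38 in HE1, 1.47 ± 0.38 in HE2 and 1.63 ± 0.38 in HP. The HP difference did not pass (adjusted p = 0.0810). Without PlusDox HP replicate 1, the lower of the PlusDox HP libraries, it was 2.21 and passed (adjusted p = 0.0373).

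**Figure D2:**
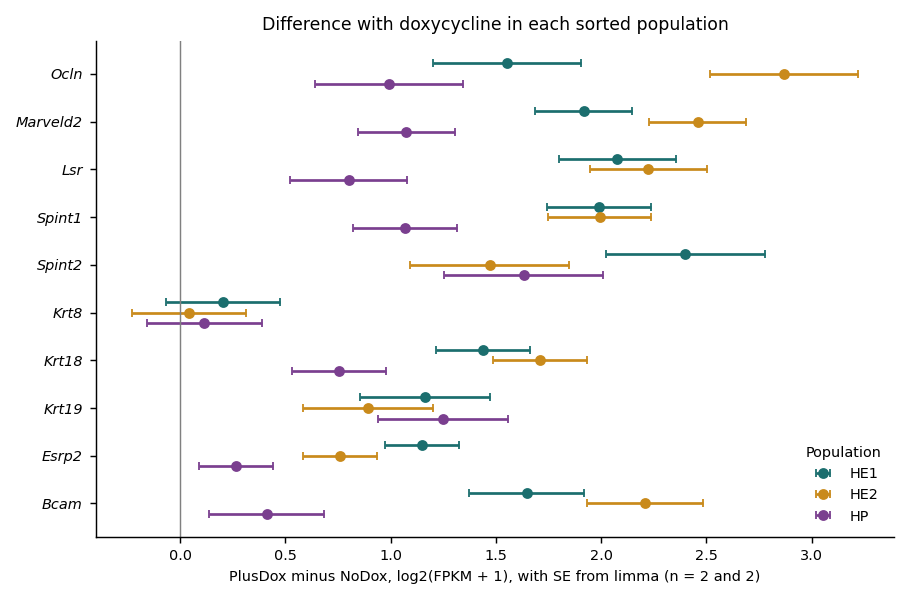
Difference between PlusDox and NoDox on the log2(FPKM + 1) scale, on the horizontal axis, for the 10 genes in HE1, HE2 and HP, with bars of 1 SE from limma (n = 2 and 2). Ocln in HE2 is farthest right at 2.87, and the Krt8 values are 0.20 in HE1, 0.04 in HE2 and 0.12 in HP. HE1 and HE2 values chose the genes and are shown as a description.

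The keratins differed among themselves. Krt8, a type II keratin, lies at chr15:101996711-102004342, and Krt18, the type I keratin that pairs with it, at chr15:102028216-102032026. They are 23874 bases apart with no other tested gene between. Their promoters are shown because the genes are neighbours and moved differently. The sequences are RefSeq's (GRCm38.p6), at chr15:102004293-102004592 on the minus strand for Krt8 and chr15:102027966-102028265 on the plus strand for Krt18, and capitals again mark CAGGTG or CACCTG.
Krt8: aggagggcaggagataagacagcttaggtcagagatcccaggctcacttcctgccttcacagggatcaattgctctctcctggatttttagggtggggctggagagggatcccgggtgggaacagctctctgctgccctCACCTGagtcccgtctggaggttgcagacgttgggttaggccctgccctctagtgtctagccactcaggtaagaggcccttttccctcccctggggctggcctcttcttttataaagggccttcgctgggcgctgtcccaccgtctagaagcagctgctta
Krt18: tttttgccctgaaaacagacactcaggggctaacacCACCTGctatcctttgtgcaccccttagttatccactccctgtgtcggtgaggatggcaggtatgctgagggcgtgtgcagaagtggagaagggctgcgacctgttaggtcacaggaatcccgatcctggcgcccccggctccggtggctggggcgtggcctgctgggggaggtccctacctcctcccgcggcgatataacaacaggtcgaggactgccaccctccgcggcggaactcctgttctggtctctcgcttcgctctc
Each promoter held 1 such match, and its part in the difference between the genes was not tested. GC content was 58% for Krt8 and 61.3% for Krt18.

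Krt8 had 22.7 and 17.8 FPKM in PlusDox HE1, against 18.4 and 16.3 FPKM in NoDox HE1. In HE2 it had 14.0 and 16.5 FPKM with doxycycline and 14.5 and 15.1 FPKM without. PlusDox HP had 10.6 and 20.0 FPKM, against 11 and 16.4 FPKM in NoDox HP. The groups overlapped in all 3 populations. Its log2 difference came to 0.20 ± 0.27 in HE1, 0.04 ± 0.27 in HE2 and 0.12 ± 0.27 in HP (adjusted p = 0.993). In HP its sign turned without PlusDox HP replicate 2 (−0.31) or without NoDox HP replicate 1 (−0.15). In HE2 the sign turned without PlusDox HE2 replicate 2 (−0.07). RefSeq names a pseudogene of Krt8, Krt8-ps, and reads from such a copy could have been counted for Krt8.

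Krt18 was the most abundant of the 10 transcripts in every PlusDox library. It reached 54.7 and 45.2 FPKM in PlusDox HE1, against 17.6 and 17.9 FPKM in NoDox HE1. PlusDox HE2 reached 60.7 and 56.3 FPKM, against 17.1 and 17.3 FPKM in NoDox HE2. PlusDox HP had 29.7 and 44.8 FPKM, against 17.8 and 25.3 FPKM in NoDox HP. The NoDox libraries of HE1 and HE2 lay between 17.1 and 17.9 FPKM, and all PlusDox libraries lay above every NoDox library. The log2 difference was 1.44 ± 0.22 in HE1, 1.71 ± 0.22 in HE2 and 0.75 ± 0.22 in HP (adjusted p = 0.199, not passed).

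The 2 pairing keratins were near equal in transcript in NoDox HE1 and NoDox HE2, while Krt18 exceeded Krt8 in the other groups. The Krt18 to Krt8 ratio of FPKM was 2.41 and 2.54 in PlusDox HE1, against 0.956 and 1.10 in NoDox HE1. In HE2 it was 4.33 and 3.41 with doxycycline and 1.18 and 1.15 without. In HP it was 2.79 and 2.24 in PlusDox and 1.62 and 1.54 in NoDox. All 6 PlusDox ratios were above all 6 NoDox ratios. They were not tested, and the HE1 and HE2 differences chose the genes, so nothing is read from that separation in HE1 and HE2. Because both genes are read within a library, these ratios do not depend on how libraries are scaled to each other.

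**Figure D3:**
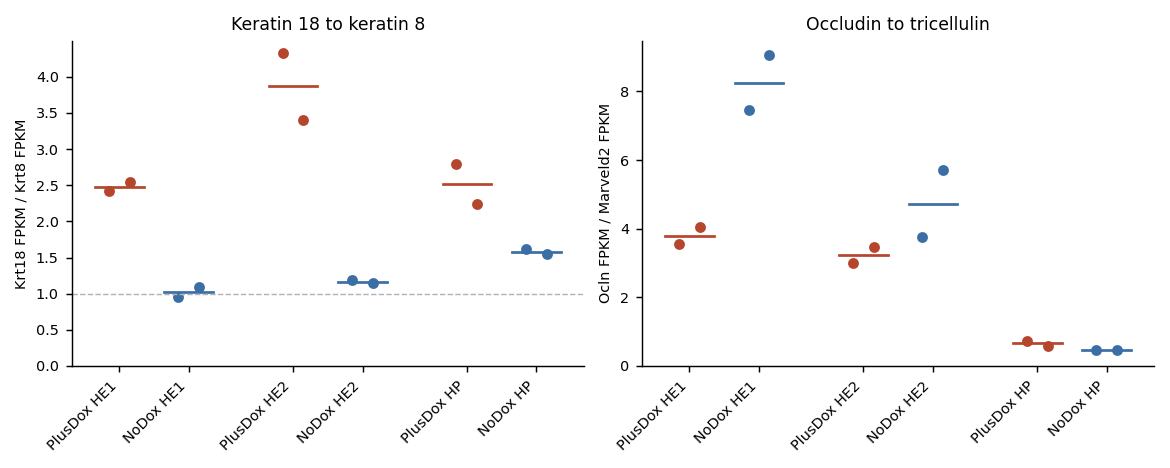
Ratio of FPKM within each library, on the vertical axis, for Krt18 over Krt8 (left) and Ocln over Marveld2 (right) in the 6 groups, with points for libraries and lines for group means. The keratin ratio is 2.24 to 4.33 in the PlusDox libraries and 0.956 to 1.62 in the NoDox libraries, while the junction ratio is lower with doxycycline in HE1 and HE2 and higher in HP. Neither ratio was tested, and HE1 and HE2 differences chose the genes.

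Krt19, a type I keratin that can also pair with Krt8, lies at chr11:100140810-100145926. It was highest in HE1, at 24.6 and 17.7 FPKM in PlusDox HE1 and 9.43 and 8.16 FPKM in NoDox HE1. PlusDox HE2 had 7.35 and 9.61 FPKM, against 3.52 and 4.69 FPKM in NoDox HE2. PlusDox HP had 4.43 and 8.78 FPKM, against 1.43 and 2.87 FPKM in NoDox HP. Its untreated libraries did not overlap between populations, and NoDox HE1 overlapped PlusDox HE2. On the log2 scale the difference was 1.16 ± 0.31 in HE1, 0.89 ± 0.31 in HE2 and 1.25 ± 0.31 in HP (adjusted p = 0.102, not passed). Of 54 keratin gene names, 5 reached 1 FPKM in any library. Besides these 3, they were Krt7, with a highest value of 1.42 FPKM, and Krt10, with 1.24 FPKM, both named here after their values were seen. Krt7, a type II keratin of simple epithelia, was listed at 0 in all NoDox libraries. In PlusDox libraries it was 0.217 FPKM and 0 in HE1, 0.608 and 0.560 FPKM in HE2, and 0.624 and 1.42 FPKM in HP.

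Esrp2 encodes an epithelial regulator of RNA splicing and lies at chr8:106130319-106137193. Its level was low throughout, at 2.94 and 3.0 FPKM in PlusDox HE1 and 0.723 and 0.859 FPKM in NoDox HE1. PlusDox HE2 had 1.84 and 2.25 FPKM, against 0.825 and 0.763 FPKM in NoDox HE2. PlusDox HP had 2.25 and 2.16 FPKM, against 1.74 and 1.59 FPKM in NoDox HP. HP was the highest population without doxycycline, the reverse of Ocln and Bcam. In log2 units the difference was 1.15 ± 0.18 in HE1, 0.76 ± 0.18 in HE2 and 0.27 ± 0.18 in HP (adjusted p = 0.799, not passed). The gene overlaps Nfatc3 and 1810019D21Rik, and the sources used here do not say whether the counting used strand. Nfatc3, at group means of 15.6 to 22.5 FPKM, did not move with it, with log2 differences of −0.17 in HE1, −0.33 in HE2 and −0.23 in HP, none past the threshold.

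Bcam encodes a surface receptor for laminin, also known as the Lutheran blood group protein, and lies at chr7:19756138-19770532. It had 12.8 and 7.67 FPKM in PlusDox HE1, against 2.61 and 2.37 FPKM in NoDox HE1. PlusDox HE2 had 9.17 and 6.12 FPKM, against 0.495 and 1.27 FPKM in NoDox HE2. In PlusDox HP it had 0.441 and 0.306 FPKM, against 0.0640 FPKM in NoDox HP replicate 1, while replicate 2 listed it at 0. No PlusDox library overlapped the NoDox libraries of its population, and HP was low with and without doxycycline. The log2(FPKM + 1) difference was 1.65 ± 0.27 in HE1, 2.21 ± 0.27 in HE2 and 0.41 ± 0.27 in HP (adjusted p = 0.806, not passed). With a pseudocount of 0.1 it was 1.95 in HE1, 3.07 in HE2 and 1.87 in HP.

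The 2 classes of library, above and below 1000 FPKM of Lars2, were compared separately. In HE1 and HP each class held 1 PlusDox and 1 NoDox library, and in HE2 the low class held 1 PlusDox and 2 NoDox libraries. The direction within a class is fixed for genes whose groups do not overlap, so sizes alone are given. For Spint2 in HP the log2 difference was 1.06 in the low class and 2.21 in the high class, and for Lsr in HE1 it was 2.56 in the low class and 1.59 in the high class. Krt8 was −0.04 in the low class of HP and 0.28 in the high class. The part of the library class in the sizes of these differences was not tested.

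Pluripotency and mesothelial markers were low, while endoderm and trophoblast sums were above the levels of some of the 10 genes. The 7 pluripotency markers summed to at most 1.75 FPKM and the 5 mesothelial markers to at most 3.89 FPKM in any library. The mesothelial sum was lower with doxycycline in HE1, at 0.617 to 1.13 FPKM in PlusDox and 2.08 to 3.89 FPKM in NoDox. The 10 endoderm markers summed to 13.0 to 16.0 FPKM in PlusDox HE1, against 16.9 to 17.9 FPKM in NoDox HE1. In HE2 they summed to 12.4 to 17.1 FPKM in PlusDox and 13.3 to 20.8 FPKM in NoDox, and in HP to 7.11 to 10.6 FPKM in PlusDox and 8.10 to 13.7 FPKM in NoDox. Most of that sum was Rhox5, a homeobox gene that is not limited to endoderm, and Hnf4a was listed at 0 in all 12 libraries. The 5 trophoblast markers summed to 7.67 to 7.89 FPKM in PlusDox HE1, against 4.49 to 5.37 FPKM in NoDox HE1, and most of it was Gata3, a zinc finger factor also made outside the trophoblast. In HE2 they summed to 3.71 to 6.80 FPKM in PlusDox and 3.16 to 3.18 FPKM in NoDox. In HP they summed to 1.09 to 1.47 FPKM in PlusDox and 0.548 to 0.660 FPKM in NoDox. Gata3 had 6.58 and 7.08 FPKM in PlusDox HE1, against 3.64 and 4.25 FPKM in NoDox HE1, while Cdx2, Elf5 and Tfap2c stayed below 0.5 FPKM in both groups. The 6 mesenchymal markers summed to 233 to 313 FPKM in PlusDox HE1, against 121 to 204 FPKM in NoDox HE1. In HE2 their ranges overlapped, at 49.4 to 95.3 FPKM in PlusDox and 56.9 to 91.8 FPKM in NoDox. Endothelial markers were higher with doxycycline in the later populations, summing to 1103 to 1145 FPKM in PlusDox HE2, against 688 to 1022 FPKM in NoDox HE2, and to 212 to 304 FPKM in PlusDox HP, against 135 to 159 FPKM in NoDox HP. The part of these markers in the differences of the 10 genes was not tested.

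The genes that define a full epithelial state in textbooks stayed low. Epcam and Cdh1, the epithelial adhesion molecule and E-cadherin, were at most 0.429 and 0.510 FPKM in any library. Both were below the filter and were not tested. Cdh1 had 0.510 and 0.305 FPKM in PlusDox HE1, against 0.0839 and 0.220 FPKM in NoDox HE1. In HE2 it had 0.261 and 0.334 FPKM with doxycycline and 0.0367 and 0.0996 FPKM without. Epcam was also higher with doxycycline in HE1 and HE2, at 0.232 and 0.143 FPKM in PlusDox HE2 and 0.0338 and 0.0266 FPKM in NoDox HE2. In HP the libraries overlapped for both genes. Esrp1, the partner of Esrp2, was at most 0.195 FPKM, and Grhl2, a Grainyhead factor of epithelia, at most 0.145 FPKM. Ovol2, another epithelial factor, was listed at 0 in all 12 libraries. The repressors of epithelial genes remained expressed. Zeb1 had 15.1 and 11.8 FPKM in PlusDox HE1, against 12.2 and 15.1 FPKM in NoDox HE1, with a log2 difference of −0.02 ± 0.24 (adjusted p = 0.999). Its difference was 0.58 ± 0.24 in HE2 (adjusted p = 0.187) and 0.35 ± 0.24 in HP (adjusted p = 0.831). Zeb2 had 25.4 and 27.2 FPKM in PlusDox HE2, against 31.3 and 38.6 FPKM in NoDox HE2, with a log2 difference of −0.39 ± 0.22 (adjusted p = 0.326). Snai1 was at most 3.77 FPKM and Snai2 at most 0.694 FPKM. None of the 6 tested genes of the list of epithelial regulators and their repressors passed limma's test in HE1, HE2 or HP. At an unadjusted p below 0.05 there were 1 in HE1, 2 in HE2 and 0 in HP. Over all 13316 tested genes there were 1277 in HE1, 2973 in HE2 and 1250 in HP.

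Other genes of the same structures were taken from 6 lists with 141 names, of which 58 were tested. The lists were drawn by function with earlier results of these data known, so they are not an unselected set to hold against all genes. In HE1, 4 were called higher and 0 lower, where 0.961% of all tested genes were called higher. In HE2, 10 were called higher and 0 lower, where 3.82% of all tested genes were called higher and 2.24% lower. In HP, 1 was called higher and 1 lower, where 0.601% of all were called higher and 0.233% lower. The median log2 difference of the 58 was 0.20 in HE1, 0.37 in HE2 and 0.27 in HP. The difference between populations was tested for all 58, and 0 passed in any of the 3 comparisons. Over all tested genes 0.0375% passed for HE1 minus HP, 0.015% for HE2 minus HP and 0.0451% for HE2 minus HE1. At an unadjusted p below 0.05 there were 4 of the 58 for HE1 minus HP, 2 for HE2 minus HP and 6 for HE2 minus HE1. The share of all tested genes at that level is not given, so nothing is read from these counts.

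The 19 tested tight junction genes gave 1 call in HE1, 3 in HE2 and 1 in HP. Inadl, the file's name for Patj, is a scaffold protein of cell polarity, and it had 6.08 and 5.38 FPKM in PlusDox HE1, against 1.56 and 1.86 FPKM in NoDox HE1. It rose by 1.31 ± 0.28 in HE1 (adjusted p = 0.0469) and by 1.12 ± 0.28 in HE2 (adjusted p = 0.0399). Cldn5, the endothelial claudin, had 60.0 and 86.3 FPKM in PlusDox HE2, against 11.9 and 34.1 FPKM in NoDox HE2, a rise of 1.78 ± 0.44 (adjusted p = 0.0367). Cgnl1, which encodes the junction plaque protein paracingulin, rose by 1.45 ± 0.30 in HE2 (adjusted p = 0.0165). Its relative Cgn, cingulin, was low and fell by 0.94 in HP, with 0.782 and 0.620 FPKM in PlusDox HP and 2.70 and 1.89 FPKM in NoDox HP (adjusted p = 0.0398). Tjp1 and F11r, a junction scaffold and an adhesion molecule named after their values were seen, were abundant in both groups and passed in no population. Tjp1 had 76.3 and 58.6 FPKM in PlusDox HE1 and 65.5 and 76.1 FPKM in NoDox HE1. F11r had 125 and 107 FPKM in PlusDox HE1 and 80.0 and 119 FPKM in NoDox HE1.

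The 7 tested keratin and desmosome genes gave 1 call in HE1, 2 in HE2 and 0 in HP. At an unadjusted p below 0.05 there were 3 of these in HP, and 1250 of all 13316 tested genes. Dsp, desmoplakin, which anchors intermediate filaments to desmosomes, had 11.2 and 6.19 FPKM in PlusDox HE1, against 2.06 and 2.34 FPKM in NoDox HE1. In HE2 it had 5.16 and 4.45 FPKM with doxycycline and 0.847 and 1.62 FPKM without. It rose by 1.55 ± 0.27 in HE1 (adjusted p = 0.0166) and by 1.40 ± 0.27 in HE2 (adjusted p = 0.0118). Dsc2, a desmosomal cadherin, rose by 1.23 ± 0.24 in HE2 (adjusted p = 0.0116), with 2.28 and 2.91 FPKM in PlusDox HE2 and 0.395 and 0.675 FPKM in NoDox HE2.

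Matriptase and hepsin transcripts were also higher with doxycycline in HE2. Among 11 tested protease and inhibitor genes there were 2 calls in HE1, 4 in HE2 and 1 in HP, all higher. St14, matriptase, had 2.90 and 2.02 FPKM in PlusDox HE1, against 0.790 and 0.806 FPKM in NoDox HE1. In HE2 it had 2.95 and 2.99 FPKM with doxycycline and 0.574 and 0.732 FPKM without. St14 rose by 0.93 ± 0.19 in HE1 (adjusted p = 0.0384) and by 1.27 ± 0.19 in HE2 (adjusted p = 0.00336). Hpn, hepsin, was at 7.45 and 7.15 FPKM in PlusDox HE2, against 2.58 and 2.79 FPKM in NoDox HE2. In HP it was at 6.99 and 7.47 FPKM with doxycycline and 2.96 and 2.97 FPKM without. Hpn rose by 1.17 ± 0.20 in HE2 (adjusted p = 0.00560) and by 1.05 ± 0.20 in HP (adjusted p = 0.0326), and its HE1 difference was 0.08 ± 0.20 (adjusted p = 0.981). F2rl1, a protease-activated receptor that matriptase can cleave, rose by 1.24 ± 0.29 in HE2 (adjusted p = 0.0299). Wfdc2, a secreted protein of the whey acidic protein family, rose by 1.03 ± 0.19 in HE1 (adjusted p = 0.0229) and by 0.72 ± 0.19 in HE2 (adjusted p = 0.0492), at no more than 1.3 FPKM.

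Of 3 tested epithelial surface and trafficking genes, Rbm47, which encodes an RNA-binding protein, passed in HE2, and 0 passed in HE1 or HP. Rbm47 had 0.832 and 1.32 FPKM in PlusDox HE2, against 0.0273 and 0.0537 FPKM in NoDox HE2, a rise of 0.99 ± 0.22 (adjusted p = 0.0217). At an unadjusted p below 0.05 there were 0 of the 3 in HE1 and 2 in HP. The 12 tested laminins and laminin receptors gave 0 calls in any population. Of these, 2 in HE1, 4 in HE2 and 3 in HP had an unadjusted p below 0.05. So did 1277 of all 13316 tested genes in HE1, 2973 in HE2 and 1250 in HP. Lama5, which encodes the laminin chain that BCAM binds and is named for that role after its values were seen, had 22.5 and 16.1 FPKM in PlusDox HE2, against 10.4 and 10.9 FPKM in NoDox HE2. Its difference was 0.64 ± 0.23 in HE1 (adjusted p = 0.308), 0.78 ± 0.23 in HE2 (adjusted p = 0.0681) and 0.54 ± 0.23 in HP (adjusted p = 0.481).

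With 2 libraries a group, most of these calls were lost when some library of their own population was left out, though many held without another. Leaving out PlusDox HE1 replicate 2 changed which related genes were called in HE1, where Inadl and Wfdc2 were lost. Leaving out NoDox HE2 replicate 2 did so in HE2, where F2rl1, Rbm47 and Wfdc2 were lost. The count of related genes called in HE1 was 0 without PlusDox HE1 replicate 1, without NoDox HE1 replicate 1 or without NoDox HE1 replicate 2, against 4 with all libraries. In HE2 it was 1 without NoDox HE2 replicate 1, 2 without PlusDox HE2 replicate 2 and 4 without PlusDox HE2 replicate 1, against 10 with all libraries. With no filter on low values the count was 1 in HE1 and 4 in HE2, with the 4 compared libraries alone 0 and 5, and with libraries low in Lars2 alone 0 and 0. It was 7 in HE1 and 17 in HE2 with quantile normalization, and 7 and 18 with median scaling. In HP it was 0 without NoDox HE1 replicate 1 or 2, NoDox HP replicate 1 or 2, or PlusDox HP replicate 2, against 2 with all libraries. St14 in HE2 passed whichever of the 12 libraries was left out (highest adjusted p 0.0400). St14, F2rl1, Wfdc2 and Rbm47 passed the filter on low values through PlusDox libraries alone, and Cgn through 2 NoDox libraries alone. Hpn in HE2 passed in 11 of 12, with an adjusted p of 0.0555 without NoDox HE2 replicate 1.

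**Figure D4:**
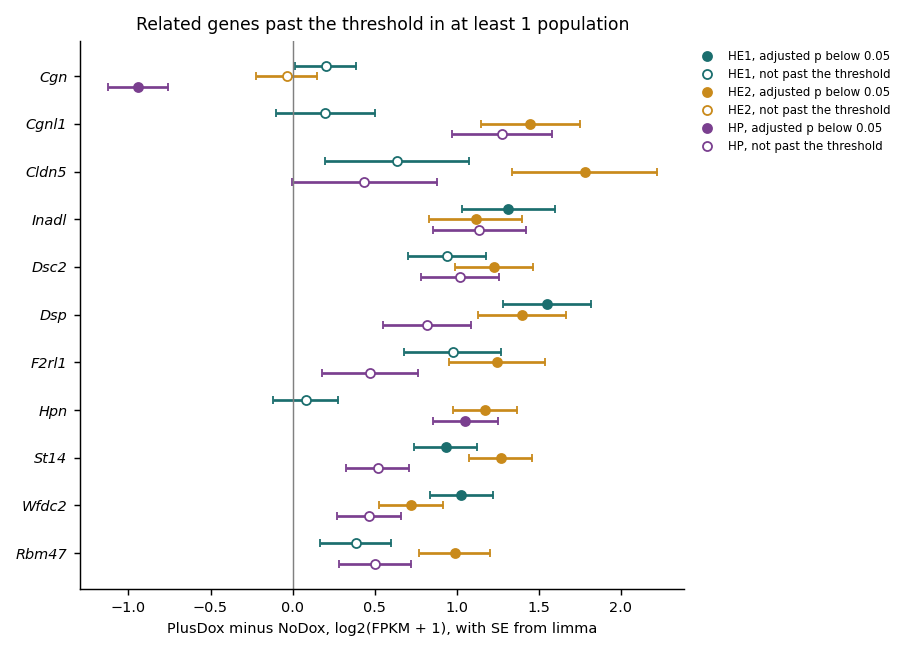
Difference between PlusDox and NoDox on the log2(FPKM + 1) scale, on the horizontal axis, for the 11 related genes that passed limma's test in at least 1 population, with bars of 1 SE and filled points where the adjusted p was below 0.05. Cgn in HP is the filled point left of 0, at −0.94, and the other filled points lie between 0.72 and 1.78.

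The patterns of the 10 genes over the 12 libraries were compared as a description, by their root mean square difference on the log2(FPKM + 1) scale. Each pattern was centred on its own mean over the 12 libraries, and 0 is an identical pattern. The spread between replicates is part of these values. Lsr and Spint1 were nearest to each other of all tested genes (0.185), and Marveld2 was nearest to Lsr (0.226). Krt18 was nearest to Eps8l2 (0.152), Krt8 to Ddr1 (0.155) and Esrp2 to Lpin3 (0.218). Krt19 was nearest to Hbegf (0.235), Ocln to Hid1 (0.303), Bcam to Tnfrsf23 (0.348) and Spint2 to Dusp5 (0.436). Against the mean pattern of the 10, Marveld2 lay closest (0.295) and Ocln farthest (1.03). These differences are not scaled to how much a gene varied. The root mean square of the gene's own pattern was 1.65 for Ocln and 0.287 for Krt8. Among other genes with a mean of at least 5 FPKM in a group, those nearest to the mean pattern were Dsp (0.173), Ethe1 (0.276), Inadl (0.281), Chrnb1 (0.283) and Etv5 (0.293). Dsp had group means of 8.69 and 2.20 FPKM in PlusDox and NoDox HE1, 4.8 and 1.23 FPKM in PlusDox and NoDox HE2, and 2.68 and 1.07 FPKM in PlusDox and NoDox HP.

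Genes next to the 10 on the chromosome were tested in the same limma fit. Of the 16 tested neighbours that are not among the 10, 0 passed in HE1, 1 in HE2 and 0 in HP. At an unadjusted p below 0.05 there were 2 in HE1, 3 in HE2 and 3 in HP. Over all 13316 tested genes that held for 1277 in HE1, 2973 in HE2 and 1250 in HP. Called either way were 1.37% of all tested genes in HE1, 6.06% in HE2 and 0.834% in HP. Median log2 differences of the neighbours were −0.08 in HE1, −0.08 in HE2 and 0.05 in HP. The neighbour that passed was Fam187b, 325 bases from Lsr, which rose by 1.20 in HE2 (adjusted p = 0.0153) and reached a group mean of 1.68 FPKM. Next to Spint2, 7863 bases away, 2200002D01Rik had differences of 1.14 in HE1 (adjusted p = 0.237), 1.02 in HE2 (0.131) and 0.65 in HP (0.713), with a highest group mean of 15.8 FPKM. Rad17 begins 193 bases from Marveld2, and its difference was −0.13 in HE1, 0.14 in HE2 and −0.36 in HP. Usf2, 819 bases from Lsr, had −0.07 in HE1, −0.25 in HE2 and 0.27 in HP. Neither Rad17 nor Usf2 passed in any population.

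**Figure D5:**
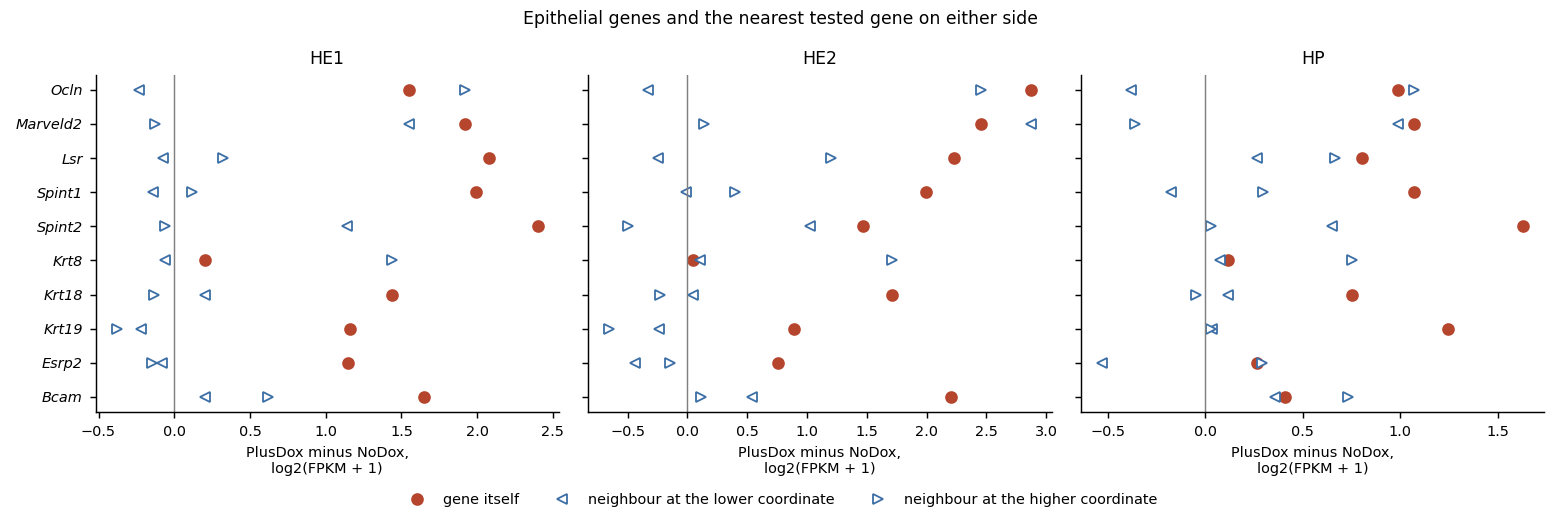
Difference between PlusDox and NoDox on the log2(FPKM + 1) scale, on the horizontal axes, for each of the 10 genes (filled circles) and the nearest tested gene on either side (open triangles) in HE1, HE2 and HP. Ocln with Marveld2 and Krt8 with Krt18 are each other's neighbours, and most other triangles lie nearer to 0 than the circle of their row. HE1 and HE2 values chose the 10 genes, so nothing is read from the distance between circles and triangles there.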

How the data were processed

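RNA from sorted mouse cells was sequenced as 12 stranded total RNA libraries in 6 groups of 2, per the labels' protocols. Trimmomatic 0.32, HISAT2 2.1.0, StringTie 1.3.3 and build mm10 are named in the submitters' processing notes. The annotation and strand setting are not stated there. The deposited values were read as FPKM made by the authors, an inference from StringTie and from library sums of 468326 to 579055, which TPM would make equal. No read counts were given, so absolute depth is unknown. Depth relative to the median library was estimated from the steps of low FPKM values, and 50 of 66 library pairs fitted it within 0.1 on the log2 scale. Values of the 2 to 4 names repeated in a file were added.

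Genes at 1 FPKM or more in at least 2 libraries were kept, 13316 in all. Group means of log2(FPKM + 1) in all 6 groups were fitted by limma 3.58.1 (R 4.3.3) with an intensity trend. The residual degrees of freedom were 6 and the prior degrees of freedom 5.83. Its two-sided p-values rest on the spread within pairs of biological replicates, pooled over groups, were adjusted by Benjamini-Hochberg over all tested genes, and were called at an adjusted p below 0.05. Where a library was left out, the lone library of its group was assumed to vary like the others. The fit was tested on simulated data. Python 3.11.15, numpy 2.4.6, pandas 2.3.3 and matplotlib 3.10.9 were used for the rest.

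The 10 genes, the 6 related lists and the marker lists were chosen with earlier results of these data known. Named were the 10 genes, up to 4 called genes of each related list per comparison by size of difference, 9 listed regulators and adhesion genes, nearest patterns and tested neighbours. Mecom, Lars2, Krt7, Krt10, Tjp1, F11r, Lama5, Nfatc3, Gata3, Rhox5, Hnf4a, Cdx2, Elf5 and Tfap2c were named after their values were seen. Gene positions and promoters came from RefSeq tables of GRCm38.p6, the assembly of mm10. They held no promoter for Krt19 or Esrp2. Alternatives were a pseudocount of 0.1, no filter, quantile normalization, median scaling, leaving out each library, a replicate block, a term for the library class by Lars2, libraries low in Lars2 alone, and the 4 libraries of a comparison alone.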

Additional observations from a re-analysis of the deposited data

Results flagged for a closer look

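Cgn, which encodes the tight junction protein cingulin, was called lower with doxycycline in HP, and its libraries lay the other way round in HE1, where the difference did not pass. The difference between PlusDox and NoDox on the log2(FPKM + 1) scale was 0.20 ± 0.18 in HE1, −0.037 ± 0.18 in HE2 and −0.94 ± 0.18 in HP (SE from limma, n = 2 and 2). Limma's adjusted p for Cgn was 0.913 in HE1, 0.934 in HE2 and 0.0398 in HP. PlusDox HE1 had 0.331 and 0.347 FPKM, against 0.185 and 0.145 FPKM in NoDox HE1. PlusDox HE2 had 0.262 and 0.303 FPKM, against 0.306 and 0.324 FPKM in NoDox HE2. PlusDox HP had 0.782 and 0.620 FPKM, against 2.70 and 1.89 FPKM in NoDox HP. The libraries were thus all higher with doxycycline in HE1 and all lower in HE2 and HP. The test of the difference did not pass, with 1.14 for HE1 minus HP (limma, adjusted p = 0.163), 0.91 for HE2 minus HP (adjusted p = 0.438) and −0.24 for HE2 minus HE1 (adjusted p = 0.957). Levels in HE1 and HE2 were below 0.5 FPKM. Cgn passed the filter on low values through the 2 NoDox HP libraries alone, the group where it was highest. Leaving out libraries in turn gave −1.12 to −0.76 in HP, and the call was lost whichever HP library was left out.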

How the results depend on the processing

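Krt8 in HP turned to −0.31 without PlusDox HP replicate 2, to −0.15 without NoDox HP replicate 1 and to −0.044 with libraries low in Lars2 alone, and leaving out libraries gave −0.31 to 0.54. Krt8 in HE2 turned to −0.069 without PlusDox HE2 replicate 2 and with libraries low in Lars2 alone. With a term for library class it was −0.10 in HE2. The number of the 10 genes called in HP was 0, and became 1 with quantile normalization (Marveld2) and 2 with median scaling (Marveld2, Spint1), and 0 to 1 when a library was left out. Over all tested genes, 182 were called in HE1, 807 in HE2 and 111 in HP. A pseudocount of 0.1 gave 97 in HE1, and no filter gave 450 in HE2. Quantile normalization gave 351 in HE1 and 1824 in HE2, where 51.6% of calls were higher against 63.1% in the reported fit. That share was 48.5% without PlusDox HE2 replicate 1, and in HE1 it was 45.9% without PlusDox HE1 replicate 1, against 70.3%. Median scaling gave 311, 1596 and 197 in HE1, HE2 and HP. A term for library class gave 1254 in HE2 and 175 in HP. Libraries low in Lars2 alone gave 0, 7 and 3, and the 4 compared libraries alone gave 2, 349 and 16, with fewer libraries in each fit. Leaving out a library gave 2 to 191 in HE1, 172 to 877 in HE2 and 10 to 124 in HP. The lowest counts came without NoDox HE1 replicate 1, NoDox HE2 replicate 1 and NoDox HP replicate 1. The cause of the other changes was not tested. Low FPKM limits the folds. With a pseudocount of 0.1, Spint2 was 3.67 in HE1 and 2.28 in HE2, Esrp2 was 1.79 in HE1 and 1.25 in HE2, and Spint1, Bcam, Ocln and Marveld2 in HP moved by more than 1.5 times as well.

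Replicate numbers were not taken to pair the libraries, since the labels tie no number to a shared culture or day. Differences between replicates 2 and 1 correlated between groups at −0.10 to 0.53, above 0.1 in 12 of 15 pairs of groups. With a replicate block, 459 genes were called in HE1, 2296 in HE2 (45.6% higher) and 305 in HP, and 4 of the 10 genes in HP (Marveld2, Spint1, Spint2 and Krt19). Related genes called with the block were 8 in HE1, 20 in HE2 and 6 in HP. With that block 1 related gene passed for HE1 minus HP and 1 for HE2 minus HE1, against 0 without it.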
